A study of Homo sapiens with 24 samples.

Results

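The experiment described here treated SUM149PT and SUM159PT cells, both established human breast cancer lines, with AZD3965 for 24 hours. Its 12 arrays were chosen from the labels of the 24 arrays in the study as every array of these 2 lines that received AZD3965 or its vehicle DMSO. Each of the 4 groups (SUM149PT with DMSO, SUM149PT with AZD3965, SUM159PT with DMSO, SUM159PT with AZD3965) had 3 arrays, hybridised with biotin-labelled RNA from whole cells. AZD3965 is a small-molecule inhibitor of the monocarboxylate transporter MCT1, and the sources used here do not give its concentration. The other 12 arrays were 6 of another breast cancer line, HS578T, under the same 2 treatments, and 6 of cells carrying a scrambled or an MCT1 short hairpin RNA.

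Each line is 1 population of cultured tumour cells, and none of the 4 groups carried a vector. SUM149PT and SUM159PT were grown in F12 medium with serum, insulin, hydrocortisone, epidermal growth factor and gentamicin. HS578T was grown in DMEM with serum, so that line and medium cannot be told apart wherever HS578T is compared. The study asked whether MCT1 shapes the metabolism of strongly glycolytic breast cancer cells. The labels do not say that the 3 arrays of a group came from separate cultures, so p-values below reflect only how far these arrays scattered, and that scatter could be technical.

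MCT1 carries lactate, pyruvate and ketone bodies across the plasma membrane together with a proton, in the direction that their gradients set. Basigin, encoded by BSG, is the chaperone that brings it to the cell surface. Cells that ferment much of their glucose export lactate and protons through MCT1 and its relatives, and blocking the export is known to raise the intracellular pools and slow glycolysis.

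Values are MAS5 signals on a linear scale with the trimmed mean of every array set to 500.1. Effects are differences of group means of log2(signal + 16), AZD3965 minus DMSO, each with its standard error (SE), and an added 16 understates the change of dim genes. Each gene is represented by its brightest probe set, and 14141 genes were bright enough to be tested. A gene is said to have risen or fallen where the Benjamini-Hochberg adjusted p of the limma fit was below 0.05. The words "unadjusted p" mark a weaker reading of the same fit, at the same threshold but with no correction for the number of genes.

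Array medians of the 12 arrays lay between 49.2 and 67.4. On 3 of the 6 AZD3965 arrays (SUM149PT arrays 2 and 3, SUM159PT array 3), called the bright arrays here, the top of the signal range stood apart. The signal that 1 in 1000 probe sets exceeded was 38560 to 39629 there, against 26369 to 31043 on the other 9 arrays. The spiked-in cre control read 37120 to 40395 on the bright arrays and 25182 to 31854 on the other 9. The dim bioB spike (81.0 to 265 against 85.2 to 290.3), the actin 3'/5' ratio (1.28 to 1.35 against 1.20 to 1.37) and the GAPDH 3'/5' ratio (0.832 to 0.948 against 0.798 to 0.93) overlapped. Among the brightest 10% of genes there was a median AZD3965 effect of 0.08 in SUM149PT and 0.07 in SUM159PT, which was 0.01 and 0.02 after quantile normalization of the arrays. Results on very bright genes are therefore given under both scalings. Among the dimmest 10% of tested genes the median was 0.08 in SUM149PT, -0.10 in SUM159PT and -0.15 in HS578T. After quantile normalization these medians were 0.03, -0.02 and -0.01. Differences between lines in dim genes, as deposited, include these shifts. The part of the bright arrays in the other results was not tested, and values without them are given beside many of the genes and lists named.

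**Figure D1:**
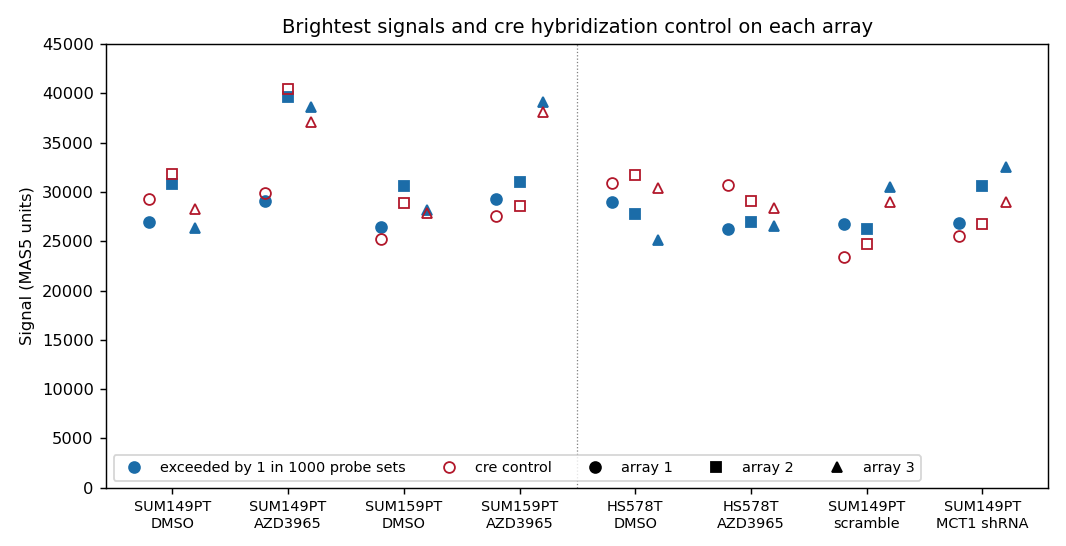
Signal that 1 in 1000 probe sets exceeded (filled symbols) and signal of the cre spike-in control (open symbols) on each array (vertical axis, linear MAS5 units), with the 12 arrays of the experiment left of the dotted line and the other 12 arrays of the study right of it. SUM149PT AZD3965 arrays 2 and 3 and SUM159PT AZD3965 array 3 sit at 38560 to 39629, above the other 21 arrays.

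The arrays matched their line labels. EPCAM, an epithelial adhesion molecule, had a median signal of 14946 over the 6 SUM149PT arrays and 41.4 over the 6 SUM159PT arrays, and E-cadherin (CDH1) read 8350 and 3.29. The basal keratin KRT5 read 2091 in SUM149PT and 11.5 in SUM159PT. Of 7 mesenchymal markers, 5 had the higher median in SUM159PT, among them ZEB1, a repressor of epithelial genes (76.9 in SUM149PT and 3771 in SUM159PT), and the matrix protein SPARC (9.52 and 9263). The other 2, fibronectin FN1 (20808 and 17609) and TWIST1 (1293 and 1203), did not. The leukocyte gene PTPRC was near the floor in both lines (medians 14.5 and 23.2), and CD14 read 420.1 and 21.6. The summed leukocyte markers were higher with AZD3965 in SUM149PT (526 to 665, against 404 to 491 with DMSO) and overlapped in SUM159PT (73.3 to 211 against 162 to 278), and their part in the results was not tested.

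In SUM149PT, 3 genes rose and 1 fell with AZD3965. The risers were CCDC127, which encodes a coiled-coil protein, CYB561D1, of the cytochrome b561 family of membrane electron carriers, and the long non-coding RNA DANCR, and the gene that fell was GRIK2, a subunit of the kainate class of glutamate receptor. These 4 are 0.0283% of the genes tested. At an unadjusted p, 1230 genes (8.7%) were higher and 1100 (7.78%) lower, and 7 genes had an adjusted p below 0.10. Among the 517 genes that differed by at least 1.5-fold in SUM149PT, 3 passed the test. The median SE of a gene in 1 line was 0.15. The AZD3965 and DMSO arrays did not overlap for 2967 of the 14141 genes in SUM149PT and for 1777 in SUM159PT. A lack of overlap, in either direction, was therefore common among all genes.

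CCDC127 read 767, 972 and 935 in the 3 SUM149PT arrays with DMSO and 1463, 1978 and 1875 with AZD3965. Every treated array lay above every control array. The effect was 0.97 ± 0.11 (SE, n = 3 arrays per group, adjusted p = 0.000215). In SUM159PT the same gene read 1460, 1567 and 1674 with DMSO and 1625, 1485 and 1672 with AZD3965, so the groups overlapped, and the effect was 0.02 ± 0.11 with a 95% confidence interval from -0.21 to 0.26. A dimmer probe set for CCDC127 measured -0.47 in SUM149PT, and the mean of its probe sets gave 0.25 (adjusted p = 0.33), so the rise belongs to 1 probe set. Without the 3 bright arrays the SUM149PT effect was 0.71 (adjusted p = 0.297), with 1 treated array left and assumed to vary like the other groups.

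CYB561D1 read 365, 401 and 343 with DMSO and 521, 716 and 794 with AZD3965 in SUM149PT, with no overlap. The effect was 0.83 ± 0.12 (adjusted p = 0.00335). SUM159PT had much the same starting level, 364, 397 and 332, and read 376, 444 and 486 after AZD3965, which overlapped with the controls. The effect there, 0.24 ± 0.12, did not pass. In SUM149PT the gene passed under 18 of the 20 alternatives run, and without the 3 bright arrays it measured 0.48 (adjusted p = 0.877).

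DANCR stood at 1395, 1588 and 1863 in SUM149PT controls and 2213, 2490 and 2475 in treated arrays. The treated arrays were again all higher, by 0.57 ± 0.10 (adjusted p = 0.02). SUM159PT arrays were brighter for DANCR to begin with (4942, 5070 and 4938) and read 5079, 5311 and 5870 with AZD3965, an effect of 0.12 ± 0.10 that did not pass although the groups did not overlap. In SUM149PT the DANCR call held under 12 of 20 alternatives. It was lost when DMSO array 1 was left out (0.47, adjusted p = 0.194), when AZD3965 array 2 or 3 was left out (0.54 in both cases, adjusted p = 0.195 and 0.109), and without the 3 bright arrays (0.46).

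GRIK2 was the gene that fell, from 93.2, 49.8 and 49.4 with DMSO to 10.3, 14.6 and 11.7 with AZD3965 in SUM149PT. The groups did not overlap, and the effect was -1.47 ± 0.22 (adjusted p = 0.00335). In SUM159PT the signals were 45.6, 83.5 and 46.8 with DMSO and 38, 39.1 and 38.9 with AZD3965, also without overlap, and the effect of -0.41 ± 0.22 did not pass. These signals are close to the added 16, and the size of the effect in SUM149PT moved from -2.25 with an offset of 1 to -0.73 with an offset of 64 (adjusted p = 0.0856). Leaving out SUM149PT DMSO array 1, the brightest of the controls, gave -1.22 (adjusted p = 0.0599), and leaving out the 3 bright arrays gave -1.56 (adjusted p = 0.297). The other 5 probe sets for GRIK2 differed from each other in sign.

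The genes next in line in SUM149PT did not pass as deposited. MRAS, a small GTPase of the Ras family, measured -0.89 ± 0.17 and TMEFF2, a transmembrane protein with EGF-like and follistatin domains, -0.88 ± 0.17 (adjusted p = 0.0705 for both). MRAS passed after quantile normalization (-0.96, adjusted p = 0.0118). Further probe sets measured -0.11 for MRAS and 0.11 for TMEFF2. The mean of probe sets gave -0.50 for MRAS (adjusted p = 0.304) and -0.22 for TMEFF2 (adjusted p = 0.52). BNIP3L, a receptor for the removal of mitochondria, measured -0.37 ± 0.08 (adjusted p = 0.111), and -0.21 without the bright arrays. APCDD1L, a relative of the Wnt inhibitor APCDD1, measured -1.04 ± 0.22 (adjusted p = 0.116), and -0.38 without the bright arrays.

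The count in SUM149PT depended on which arrays were in the fit. Leaving out AZD3965 array 1, the one that is not bright, raised it from 4 to 648 genes, of which 266 rose (1.88%) and 382 fell (2.7%). With quantile normalization and the same omission 431 genes were called, 402 of them shared with the 648. Leaving out another SUM149PT array gave 2 genes (DMSO array 1), 17 (DMSO array 2), 7 (AZD3965 array 3) or the same count of 4 (DMSO array 3, AZD3965 array 2).

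Members of the pathway lists were among those 648. This fit rests on bright arrays 2 and 3, so each value is followed by that of the same arrays after quantile normalization. In glycolysis ALDOA (0.45, then 0.20) rose under both scalings, whereas LDHA (0.44, then 0.04), LDHB (0.43, then 0.01) and HK2 (-0.57, then -0.53) passed only as deposited (adjusted p = 0.672, 0.891 and 0.0662 after quantile normalization). Of the mitosis list 1 gene rose and 5 fell, including cyclin A2, CCNA2 (-0.53 ± 0.09, adjusted p = 0.0066, then -0.51), and the spindle checkpoint gene MAD2L1 (-0.62, then -0.62). The sodium bicarbonate transporter SLC4A7 (-0.86 ± 0.15, adjusted p = 0.0096, then -0.82) and the p53 inhibitor MDM2 (-0.68, then -0.63) fell under both scalings. So did the arrestin-domain gene ARRDC3 (-0.83, then -0.85) and GABPA (-0.88, then -0.85), a transcription factor on the mitochondrial biogenesis list. With all 3 treated arrays in the fit, no member of any pathway list passed in SUM149PT.

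In SUM159PT no gene passed (0% of the 14141), the smallest adjusted p being 0.0516. At an unadjusted p, 487 genes (3.44%) were higher and 467 (3.3%) lower. In this line 404 genes differed by at least 1.5-fold, with none of them called. Leaving out DMSO array 1, DMSO array 3, AZD3965 array 1 or AZD3965 array 2 gave 2, 4, 3 and 2 calls. The 3 genes with the smallest adjusted p were WT1, NAPRT and PTGS2, and all of them were dim.

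WT1, a zinc-finger transcription factor, read 54.4, 41.9 and 48.9 with DMSO and 20.4, 25 and 5.33 with AZD3965 in SUM159PT. All treated arrays lay below the controls, and the effect was -1.02 ± 0.17 (adjusted p = 0.0516). In SUM149PT the gene was far brighter, at 2178, 2045 and 2107 with DMSO and 2055, 2169 and 2263 with AZD3965, and its groups overlapped. A further probe set for WT1 measured 0.19 in SUM159PT. Leaving out SUM159PT AZD3965 array 1 or 2 gave -1.12 (adjusted p = 0.0247) and -1.20 (adjusted p = 0.00324), and an offset of 64 gave -0.48 (adjusted p = 0.661).

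NAPRT makes the first step of NAD synthesis from nicotinic acid. It read 120.0, 136 and 97.1 with DMSO and 35.8, 85.7 and 44.4 with AZD3965 in SUM159PT, with no overlap, for -0.96 ± 0.17 (adjusted p = 0.0516). In SUM149PT it measured 0.02 ± 0.17. Leaving out SUM159PT DMSO array 3 (-1.07, adjusted p = 0.0404) or AZD3965 array 2 (-1.25, adjusted p = 3.4e-05) brought NAPRT past the threshold. Leaving out any other SUM159PT array did not. An offset of 64 gave -0.62 (adjusted p = 0.394), and the mean of probe sets -0.44 (adjusted p = 0.709).

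PTGS2, the inducible cyclooxygenase, had measured effects of opposite sign in the lines. In SUM159PT it was close to the floor of the array, at 17.1, 9.47 and 4.1 with DMSO and 26.2, 38.3 and 35.4 with AZD3965, which gave 0.93 ± 0.17 (adjusted p = 0.0951). In SUM149PT it read 3065, 2434 and 2534 with DMSO and 2258, 1937 and 1972 with AZD3965, or -0.37 ± 0.17. Groups did not overlap in either line. Without SUM159PT DMSO array 1 the SUM159PT value was 1.12 (adjusted p = 0.0273), and a further PTGS2 probe set measured -0.37 in SUM159PT.

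Other genes with small p-values in SUM159PT did not pass either. SLC35D2, a nucleotide sugar transporter, read 102, 111 and 111 with DMSO and 59.9, 66.6 and 82.2 with AZD3965 (-0.54 ± 0.11, adjusted p = 0.102). PAX6, a developmental transcription factor, read 40.2, 54.3 and 27.7 against 11.3, 13.1 and 9.64 (-1.03 ± 0.20, adjusted p = 0.102). Neither overlapped between treatments. A further PAX6 probe set measured 0.36 in SUM159PT, and the mean of the PAX6 probe sets gave -0.33 (adjusted p = 0.819). With an offset of 64 the PAX6 effect was -0.47 (adjusted p = 0.743). The long non-coding RNA LINC01315 measured 0.92 ± 0.19 (adjusted p = 0.15) and passed after quantile normalization (1.03, adjusted p = 0.0347). Its effect was 1.67 with an offset of 1 (adjusted p = 0.031) and 0.40 with an offset of 64 (adjusted p = 0.743). Among 5649 probe sets without a gene symbol that were bright enough, 1 passed in SUM159PT (-1.19 ± 0.21, adjusted p = 0.0429).

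**Figure D2:**
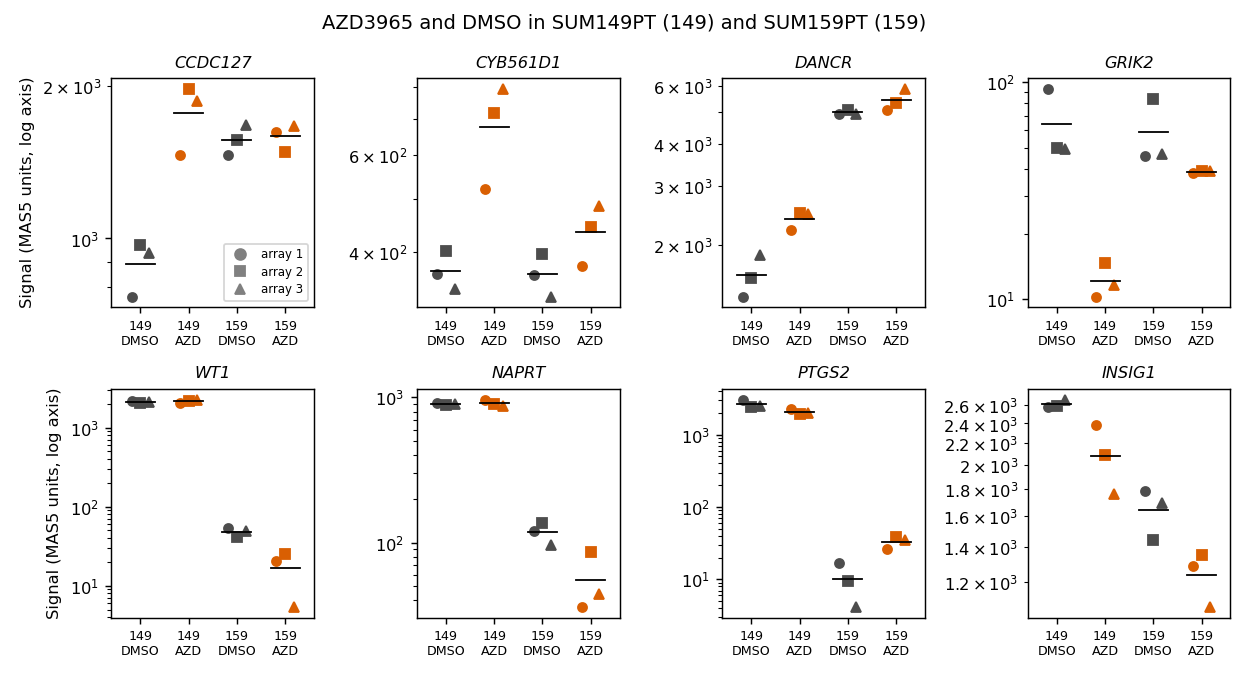
Signals of single arrays (points, log axis, MAS5 units) and group means (lines) for 8 genes with small p-values, by line (shortened to its digits) and treatment, with a symbol for each array number. CCDC127, CYB561D1 and DANCR are higher with AZD3965 on all 3 SUM149PT arrays and GRIK2 lower, while WT1, NAPRT and PTGS2 are dim in the SUM159PT arrays where they differ.

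Averaged over both lines, which asks for an effect in common, 3 genes (0.0212%) passed: CYB561D1 at 0.54 ± 0.09, CCDC127 at 0.50 ± 0.08 and GRIK2 at -0.94 ± 0.15 (n = 6 arrays per treatment, adjusted p = 0.0147 for each). All of them were among the genes called in SUM149PT, and none passed in SUM159PT alone, so a passed average does not show an effect in each line. At an unadjusted p, 1479 genes (10.5%) were higher and 1248 (8.83%) lower, and 541 had an adjusted p below 0.10. The SE of the average had a median of 0.11. These calls were sensitive to single arrays. Without SUM149PT AZD3965 array 1 there were 977 of them (460 up, 517 down), and none passed without SUM149PT DMSO array 1, AZD3965 array 2 or AZD3965 array 3. Without SUM159PT AZD3965 array 2 there were 12, with array 1 left out 5, and with SUM159PT DMSO array 1 or AZD3965 array 3 left out 1 each. None passed without the 3 bright arrays, where CYB561D1 measured 0.32, CCDC127 0.35 and GRIK2 -0.99.

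SLC35D2 and INSIG1 came nearest among the rest. SLC35D2 read 976, 956 and 989 in SUM149PT controls and 868, 815 and 726 in treated arrays, so that it was lower without overlap in both lines, and its average was -0.41 ± 0.07 (adjusted p = 0.051). The other SLC35D2 probe sets averaged -0.42, -0.32 and 0.21, and the mean of probe sets gave -0.24 (adjusted p = 0.25). INSIG1 holds the precursor of sterol-responsive transcription factors in the endoplasmic reticulum. It read 2579, 2591 and 2665 in SUM149PT controls and 2389, 2093 and 1760 in treated arrays, and 1785, 1441 and 1697 against 1285, 1354 and 1075 in SUM159PT. Every treated array lay below every control of its line, by -0.34 in SUM149PT and -0.40 in SUM159PT, and the average was -0.37 ± 0.07 (adjusted p = 0.0531). Without the bright arrays the average was -0.22. Its other probe sets measured -0.10 and 0.01.

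Further genes with an average close to the threshold were BNIP3L (-0.27 ± 0.05, adjusted p = 0.0814), DANCR (0.34 ± 0.07, adjusted p = 0.0814), the small nucleolar RNA host SNHG32 (0.28 ± 0.06, adjusted p = 0.0814) and the histone deacetylase gene HDAC4 (-0.44 ± 0.09, adjusted p = 0.0933). BNIP3L read 1913, 1878 and 1899 with DMSO and 1635, 1508 and 1265 with AZD3965 in SUM149PT, and 3175, 3198 and 2927 against 2913, 2796 and 2540 in SUM159PT. It was lower without overlap in both lines, and its average was -0.16 without the bright arrays. A further BNIP3L probe set, nearly as bright, measured -0.18 in SUM149PT and 0.05 in SUM159PT. The mean of the probe sets gave an average of -0.17 (adjusted p = 0.138). For HDAC4 the other probe sets averaged -0.15 and 0.02, and the mean of probe sets gave -0.19 (adjusted p = 0.474).

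The effects of both lines were weakly related across genes. The sign was the same for 9042 of the 14141 genes (63.9%), and Pearson's r was 0.17. Without the 3 bright arrays the same sign was seen for 56.6% of genes, with r = 0.03, while quantile normalization left 64.9% and r = 0.19. Genes within an array are not independent replicates, and the lines share the scale and the brightness of their arrays. Of the 283 genes with an unadjusted p below the threshold in both lines, 267 had the same sign. Of the 648 genes called in SUM149PT without array 1, 576 (88.9%) had the same sign in SUM159PT, where 63.4% of all genes did. With SUM159PT AZD3965 array 3 left out as well, the shares were 80.2% and 58.8%.

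**Figure D3:**
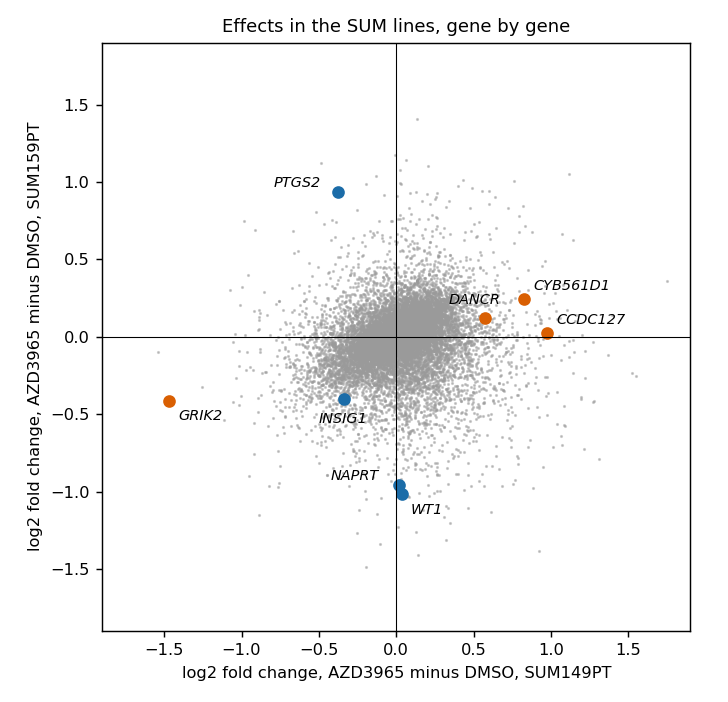
AZD3965 effect of each of the 14141 genes in SUM149PT (horizontal axis) and SUM159PT (vertical axis), both as log2 differences of group means, with the 4 genes called in SUM149PT in orange and 4 other named genes in blue. Of all genes, 63.9% have the same sign in both lines, and the 4 called genes lie nearer 0 on the SUM159PT axis than on the SUM149PT axis.

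No gene differed between the lines in its response to AZD3965 (0%), with a smallest adjusted p of 0.0777. At an unadjusted p, 253 genes had the higher effect in SUM159PT and 394 in SUM149PT. The median SE of this difference was 0.21, so the 3 arrays per group leave room for differences of moderate size in most genes. The smallest p was that of CCDC127, with SUM159PT minus SUM149PT at -0.95 ± 0.16 (95% interval -1.28 to -0.62, adjusted p = 0.0777). PTGS2 followed at 1.31 ± 0.25 (95% interval 0.80 to 1.82, adjusted p = 0.16). WT1 measured -1.05 ± 0.24, PAX6 -1.24 ± 0.28 and MRAS 1.06 ± 0.24 (adjusted p = 0.413 for each). A further PAX6 probe set differed the other way, at -0.29 in SUM149PT and 0.36 in SUM159PT. Other probe sets measured -0.38 in SUM149PT and -0.37 in SUM159PT for PTGS2, -0.11 and -0.13 for MRAS, and 0.04 and 0.19 for WT1. The mean of probe sets gave -0.31 for CCDC127, 0.66 for PTGS2, 0.52 for MRAS and -0.45 for WT1 (each adjusted p = 0.999). Without SUM149PT AZD3965 array 1 there were 2 calls, CCDC127 among them (-1.08, adjusted p = 0.00637). PTGS2 passed without SUM159PT DMSO array 1 (1.49, adjusted p = 0.0374), and an offset of 64 gave 0.76 (adjusted p = 0.570). WT1 measured -0.69 without the bright arrays.

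The transporter genes and the lactate-handling enzymes did not pass in either line. SLC16A7, which encodes the high-affinity transporter MCT2, read 409, 214 and 196 with DMSO and 185, 251 and 178 with AZD3965 in SUM149PT, and 1493, 1088 and 1494 against 1209, 1113 and 1010 in SUM159PT. The groups overlapped in both lines, and the average was -0.30 ± 0.17 with a 95% interval from -0.66 to 0.05. BSG read 2352, 2331 and 2301 against 2740, 2514 and 2764 in SUM149PT, without overlap, and 2021, 2132 and 1815 against 2212, 1996 and 2308 in SUM159PT, with overlap. Its average was 0.16 ± 0.05 (adjusted p = 0.102). Of 11 genes on the monocarboxylate transport list 5 were measured. For the average 1 was higher and 1 lower at an unadjusted p, beside 10.5% and 8.83% of all genes.

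LDHA, the subunit of lactate dehydrogenase that predominates in fermenting cells, was one of the brightest genes. It read 24479, 27644 and 23328 with DMSO and 25873, 34038 and 34107 with AZD3965 in SUM149PT, and 24632, 30135 and 26002 against 27362, 30010 and 38898 in SUM159PT. The high values were those of the bright arrays. The average was 0.28 ± 0.08 (adjusted p = 0.0978), and it was 0.03 (adjusted p = 0.678) after quantile normalization and 0.07 without the bright arrays. LDHB, the other common subunit, measured 0.26 ± 0.07 (adjusted p = 0.0933), and 0.00 after quantile normalization.

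HK2, the hexokinase that tumours often express, pointed the other way. It read 2653, 2034 and 1976 with DMSO and 1726, 1396 and 1558 with AZD3965 in SUM149PT, with no overlap, and 4139, 3716 and 4185 against 3568, 3682 and 2626 in SUM159PT, also with none. The average of -0.40 ± 0.10 did not pass (adjusted p = 0.0933), was -0.39 after quantile normalization and -0.25 without the bright arrays. PDK1, the kinase that switches off pyruvate dehydrogenase, read 1787, 1956 and 1798 against 1780, 1474 and 1534 in SUM149PT (-0.21 ± 0.10, adjusted p = 0.267, and -0.05 without the bright arrays) and 1687, 1770 and 1583 against 1793, 1892 and 1460 in SUM159PT (0.02 ± 0.10, adjusted p = 0.977). TXNIP, whose transcription is known to follow glucose-derived metabolites, measured 0.16 ± 0.07 on average (adjusted p = 0.238), and 0.08 without the bright arrays.

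The pathway lists are described by how many of their measured members had an unadjusted p below the threshold for the average of both lines. Their median effects stand beside the median of all 14141 genes, which was 0.04 in SUM149PT, 0.00 in SUM159PT and 0.02 on average. As given above, 10.5% of all genes were higher and 8.83% lower by this reading. No member of any of the 42 lists passed the adjusted test in either line.

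In glycolysis 10 of 22 members were higher and 2 lower, and the list median was 0.13, which became 0.02 after quantile normalization and 0.06 without the bright arrays. ALDOA measured 0.28 ± 0.07 (adjusted p = 0.0933), 0.12 after quantile normalization and 0.09 without the bright arrays. The enzymes had medians of 0.18 in SUM149PT and 0.12 in SUM159PT, the glucose transporters 0.01 and 0.01. Oxidative phosphorylation had 12 of 24 members higher and none lower, with a median of 0.12 that became 0.04 after quantile normalization and 0.06 without the bright arrays. Subunits of ATP synthase, complex V, stood highest there as deposited, with medians of 0.26 in SUM149PT and 0.20 in SUM159PT. For the average of both lines their median was 0.22 as deposited and 0.07 after quantile normalization, and ATP5F1B measured 0.22 and 0.08. Both lists hold many very bright genes.

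In the citric acid cycle 6 of 19 members were higher and 2 lower, with a median of 0.08 that was 0.03 without the bright arrays. Of the 13 genes for the entry of pyruvate into mitochondria 2 were higher and 3 lower. Within that list PDHA1, a catalytic subunit of pyruvate dehydrogenase, read 3874, 4650 and 4465 with DMSO and 5561, 5670 and 5562 with AZD3965 in SUM149PT, and 5680, 6028 and 5249 against 6090, 6138 and 7355 in SUM159PT. Treated arrays lay above controls in both lines, and the average of 0.29 ± 0.06 did not pass (adjusted p = 0.0933). The pentose phosphate pathway had 3 of 6 members higher.

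Of the 15 aminoacyl-tRNA synthetases 7 were higher and none lower, with a median of 0.12 that was 0.08 after quantile normalization and 0.03 without the bright arrays. Among 23 genes of the amino acid stress response under ATF4, 2 were higher and 1 lower, and the median was 0.06. SESN2, a stress-induced inhibitor of mTORC1 signalling on that list, read 149.1, 173 and 208 with DMSO and 239, 237 and 223 with AZD3965 in SUM149PT, and 90.7, 102 and 115 against 128, 146 and 175 in SUM159PT. It lay higher without overlap in both lines, by 0.43 ± 0.14 on average, and did not pass. The unfolded protein response had 7 of 22 members higher and 2 lower, around a median of 0.04, and the NRF2 list 2 and 3 of 15.

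Acid-base genes, which move protons and bicarbonate, had 3 of 7 members higher and 1 lower. ATP6V0D1, a subunit of the proton-pumping V-ATPase, measured 0.38 ± 0.09, and the bicarbonate importer SLC4A7 -0.44 ± 0.11 (-0.19 without the bright arrays). Neither passed. Of 8 genes on the MondoA list, 3 factors of that glucose-sensing pathway and 5 targets, 1 was higher and 1 lower. The cholesterol list, with 14 synthesis genes, 3 regulators and 2 efflux genes, had 1 of 19 members higher and 4 lower. The median was 0.02 for synthesis and -0.26 for efflux. In the same reading, fatty acid synthesis had none of 10 in either direction. Fatty acid oxidation had 4 of 19 higher and 3 lower, and lysosome genes 1 of 16 higher.

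Cell cycle lists were divided. Among 28 mitosis genes 5 were higher and 10 lower, although the median was -0.01. CDC20, the activator of the anaphase-promoting complex, measured 0.29 ± 0.07, and the spindle motor KIF11 -0.25 ± 0.06, which became 0.12 and -0.11 without the bright arrays. DNA replication had 5 of 26 higher and 2 lower, with E2F1 at 0.41 and cyclin E2, CCNE2, at -0.26 ± 0.07 (-0.16 without the bright arrays). In the list of MYC and nucleolar genes 6 of 16 were higher and 1 lower. Of 10 p53 targets 2 were lower, MDM2 at -0.30 and RRM2B at -0.34, and none was higher. Without the bright arrays these were -0.01 and -0.17. The D cyclins and their inhibitors gave 0 of 8 in both directions.

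The NF-kB list had 3 of 16 higher and none lower, with TNF at 0.34 ± 0.14 and the immediate early protein IER3 at 0.27 ± 0.06 (0.14 after quantile normalization). Interferon genes gave 0 of 13, and YAP/TAZ targets 0 higher and 3 lower of 14. Heat shock genes had 4 of 9 higher with a median of 0.11, which was 0.00 after quantile normalization. Their small chaperone HSPB1 measured 0.32 ± 0.07, 0.26 after quantile normalization and 0.15 without the bright arrays. Collagens and matrix genes gave 2 higher and 4 lower of 18. The genes usually taken as references gave 5 higher of 9 with a median of 0.11, and 0.03 after quantile normalization, where ACTB and PPIA measured 0.30 each as deposited and 0.03 and 0.04 after it.

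**Figure D4:**
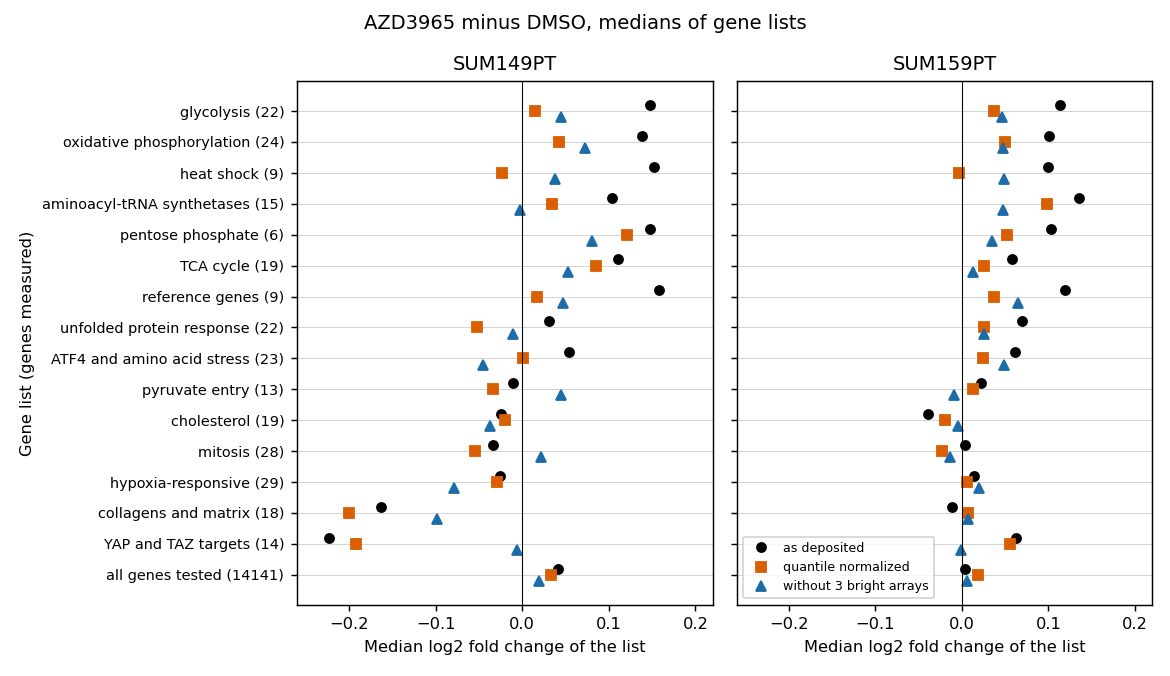
Median log2 effect of AZD3965 over the measured genes of each pathway list (horizontal axis), in SUM149PT (left) and SUM159PT (right), with the signals as deposited (circles), after quantile normalization (squares) and without the 3 bright arrays (triangles), and the number of measured genes after each name. As deposited, glycolysis lies at 0.15 in SUM149PT and 0.11 in SUM159PT and the reference genes at 0.16 and 0.12, and both lists lie nearer 0 under the other settings.

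The comparison with HS578T, treated with AZD3965 in the same way, asks where these 2 lines differed from it. In it 23 genes (0.163%) passed; the average effect in SUM149PT and SUM159PT minus the effect in HS578T was above 0 for 4 of them and below 0 for 19. The hypoxia list had 29 of 30 genes measured, 25 targets of hypoxia-inducible factors and 4 regulators of the pathway. Of the 19 lower genes 9 are on it, all of them targets: PDK1, AK4, BNIP3, BHLHE40, NDRG1, P4HA1, SLC2A1, PLOD2 and BNIP3L. The median of the difference over the 29 was -0.36, beside 0.04 for all genes. In HS578T 43 genes (0.304%) passed, 8 of the 29 among them. In SUM149PT and SUM159PT none of the 29 did. Medians over the 25 targets were -0.03 in SUM149PT, 0.01 in SUM159PT and 0.32 in HS578T. At an unadjusted p, 2 of the 29 were higher and 7 lower in SUM149PT, beside 8.7% and 7.78% of all genes. In SUM159PT 0 were higher and 1 lower, beside 3.44% and 3.3% of all genes.

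BNIP3, which marks mitochondria for removal, read 4303, 4571 and 4697 with DMSO and 4473, 4403 and 4713 with AZD3965 in SUM149PT, and 7616, 7852 and 7892 against 7582, 8095 and 8711 in SUM159PT. The groups overlapped in both lines, with effects of 0.00 ± 0.06 (95% interval -0.13 to 0.13) and 0.06 ± 0.06 (-0.07 to 0.19). In HS578T it read 7428, 7101 and 6663 against 11110, 10837 and 11250. The difference was -0.62 ± 0.08 (adjusted p = 0.000228).

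AK4, a mitochondrial adenylate kinase, started from unequal levels in the lines and its groups overlapped in SUM159PT. It read 2816, 2731 and 2710 against 2522, 2668 and 2705 in SUM149PT (-0.06 ± 0.10), and 123, 139.8 and 134 against 137, 96.5 and 143 in SUM159PT (-0.08 ± 0.10). In HS578T it read 2009, 2238 and 2218 against 3851, 3719 and 3775. The difference was -0.88 ± 0.13 (adjusted p = 0.00167), and AK4 and BNIP3 passed under all 30 alternatives run.

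P4HA1, the catalytic subunit of collagen prolyl hydroxylase, read 2846, 3023 and 2845 against 2586, 2513 and 2716 in SUM149PT (-0.16 ± 0.06) and 3293, 3277 and 3043 against 3098, 3092 and 3164 in SUM159PT (-0.04 ± 0.06). HS578T arrays read 5145, 5296 and 5258 against 7232, 7271 and 7566, and the difference was -0.59 ± 0.07 (adjusted p = 0.000228). PDK1, whose values in both lines stand above, read 725, 890.4 and 838 against 1566, 1430 and 1675 in HS578T, for a difference of -1.01 ± 0.12 (adjusted p = 0.000196). PDK1 and P4HA1 passed under 29 of 30 alternatives and missed with the mean of all probe sets of a gene, which gave -0.43 (adjusted p = 0.232) for PDK1 and -0.13 (adjusted p = 0.903) for P4HA1.

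The stretches before the start sites of PDK1, BNIP3 and P4HA1 are shown because these 3 genes had the smallest adjusted p in the comparison with HS578T. They are the 250 bases upstream of the RefSeq start in GRCh38.p14, 5' to 3' on the gene's strand, with capitals marking ACGTG or GCGTG on either strand, the core that hypoxia-inducible factors bind. PDK1 lies on the plus strand at chr2:172555123-172555372, BNIP3 on the minus strand at chr10:131981924-131982173 and P4HA1 on the minus strand at chr10:73096867-73097116.
PDK1: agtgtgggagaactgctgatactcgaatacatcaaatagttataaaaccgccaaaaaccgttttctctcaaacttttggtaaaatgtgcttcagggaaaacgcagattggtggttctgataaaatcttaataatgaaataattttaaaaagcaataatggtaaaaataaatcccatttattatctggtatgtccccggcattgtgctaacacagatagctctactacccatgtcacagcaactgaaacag
BNIP3: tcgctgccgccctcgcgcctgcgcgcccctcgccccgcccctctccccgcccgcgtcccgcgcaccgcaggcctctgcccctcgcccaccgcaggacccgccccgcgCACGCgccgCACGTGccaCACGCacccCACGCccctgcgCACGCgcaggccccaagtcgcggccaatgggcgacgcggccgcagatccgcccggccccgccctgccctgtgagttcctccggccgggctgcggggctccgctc
P4HA1: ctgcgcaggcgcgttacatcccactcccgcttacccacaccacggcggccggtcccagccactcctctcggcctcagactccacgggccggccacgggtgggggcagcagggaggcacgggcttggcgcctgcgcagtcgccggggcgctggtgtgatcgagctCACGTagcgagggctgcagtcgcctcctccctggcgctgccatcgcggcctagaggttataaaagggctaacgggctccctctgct
BNIP3 has 6 matches, P4HA1 has 1 and PDK1 has 0 in this window. Of 27305 promoters of the same length 43.1% held at least 1 match, and so did 9 of the 16 genes among the 19 lower ones whose promoter was in the table. A match is a description of the letters, not a binding site.

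Other genes of the 19 were outside the hypoxia list. ITGB8, an integrin subunit that activates TGF-beta, read 3389, 3165 and 3193 with DMSO and 2514, 1973 and 1818 with AZD3965 in SUM149PT, and 268, 227 and 241 against 238, 164 and 100.3 in SUM159PT. It was lower without overlap in SUM149PT, overlapped in SUM159PT, and read 414, 750.0 and 755 against 1198, 1162 and 1321 in HS578T. The difference was -1.58 ± 0.28 (adjusted p = 0.0122). HK2 had a difference of -1.01 ± 0.17 (adjusted p = 0.0114), with HS578T at 1143, 1668 and 1470 against 2421, 1848 and 2278.

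TNF, a major inflammatory cytokine, had the highest difference at 1.39 ± 0.24 (adjusted p = 0.0114). It read 489.9, 552 and 626 against 595, 581 and 626 in SUM149PT, 13, 14.5 and 23 against 27.5, 36.2 and 33.6 in SUM159PT, and 34.8, 56 and 38.4 against 8.2, 10.1 and 20 in HS578T. SUM159PT and HS578T signals lie close to the added 16, and an offset of 64 gave 0.66 (adjusted p = 0.0624). CYB561D1 (0.75 ± 0.15, adjusted p = 0.0387), the mitochondrial hydrolase gene ABHD11 (0.55 ± 0.11) and TOMM34 (0.53 ± 0.11), a cochaperone of mitochondrial import, were the other 3 above 0. In that order they passed under 12, 13 and 11 of the 30 alternatives run.

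For several of the 23 the other probe sets differed from the brightest. The mean of all probe sets gave -0.06 for HK2 (adjusted p = 0.901), -0.01 for KLF2 (0.996) and -0.51 for ITGB8 (0.365). KLF2 and SLC2A1 passed under only 10 of the 30 alternatives each, and SLC2A1 missed after quantile normalization (-0.43, adjusted p = 0.0503). All 4 probe sets of PTPRF measured below 0, from -0.77 to -0.15, and their mean was -0.44 (adjusted p = 0.358). Without the 3 bright arrays 5 genes passed, all of them lower and all on the hypoxia list: PDK1 (-0.88), AK4 (-0.96), BNIP3 (-0.65), NDRG1 (-0.63) and P4HA1 (-0.60). The count was 5, 10 and 11 without HS578T DMSO array 1, AZD3965 array 1 and AZD3965 array 3, and 39 without HS578T DMSO array 3. It was 11 without SUM159PT DMSO array 1, 14 without SUM149PT DMSO array 3 or AZD3965 array 2, and 64 without SUM149PT AZD3965 array 1.

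**Figure D5:**
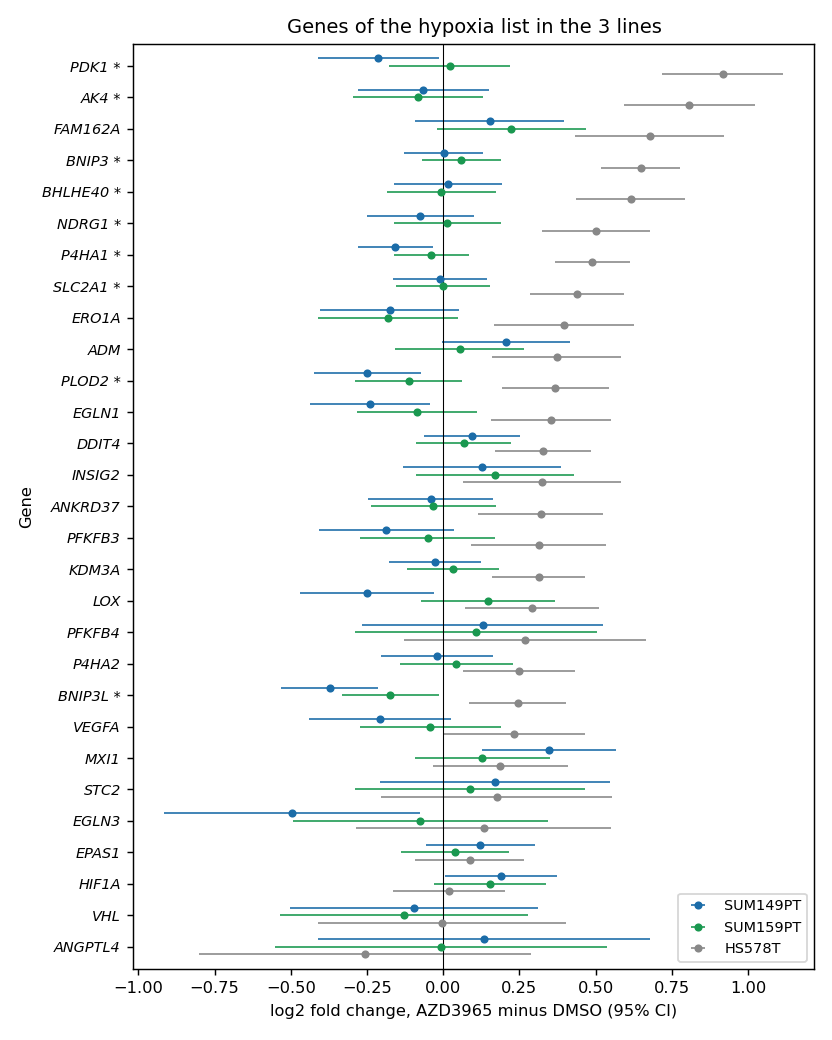
AZD3965 effect (log2 difference of group means, horizontal axis, with 95% confidence intervals) of each of the 29 measured genes of the hypoxia list (25 targets, 4 regulators) in SUM149PT, SUM159PT and HS578T, with an asterisk at the 9 genes lower in the comparison of both lines with HS578T. The interval of SUM149PT lies wholly below the HS578T value for 20 of the 29 genes and that of SUM159PT for 19. These counts leave out the error of the HS578T value and were not made for all genes. The test of the difference, which includes that error, passed for 9 of the 29 and for 23 of all 14141 genes.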

How the data were processed

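Gene expression was measured on Affymetrix arrays, 1 sample per array. The deposited table holds linear signal intensity values that the authors made with MAS5, per the submitters' processing notes, which give no version. The number of arrays limits the precision. From the values, each array had been scaled to a trimmed mean of 500.1 (2% trimmed at each end).

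Of 54675 probe sets 41097 carried 1 gene symbol, 1801 several and 11777 none, and 41043 symbols were updated through the gene ID. The probe set with the highest mean stood for each of 19775 genes, and a filter on mean log2 value, set at the 40th percentile over probe sets (5.58), left 14141 for testing. Group means of log2(signal + 16) were fitted with limma 3.58.1 in R 4.3.3 over all 24 arrays in 8 groups (16 residual degrees of freedom, prior of 6.52, with an intensity trend), and p-values were adjusted over all 14141 genes by Benjamini-Hochberg. All tests were two-sided. The fit was tested on simulated data.

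Samples were grouped by the labels. The genes and the 42 lists (614 entries, 534 measured) were chosen with earlier results of these data known. Named were SLC16A7, BSG, LDHA, LDHB, HK2, PDK1 and TXNIP, up to 10 called genes in each direction per line and for the average, up to 8 per direction for differences, the 5 smallest p-values where under 3 were called, and up to 5 members per list by the p of the average. The targeted transporter's own gene is not reported here. Alternatives were quantile normalization, median centring, offsets of 1 and 64, filters, the mean of probe sets, robust fitting, fits on 12 and 18 arrays, a replicate block and leaving out each array.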

Additional observations from a re-analysis of the deposited data

Results flagged for a closer look

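The effect of AZD3965 averaged over SUM149PT and SUM159PT differed from that in HS578T for 23 genes by the test of the difference in the limma fit. Those with the highest and lowest differences are given here as log2 values, average of these 2 lines minus HS578T. Above 0 were TNF (1.39), CYB561D1 (0.75), ABHD11 (0.55) and TOMM34 (0.53). Below 0 were the integrin subunit ITGB8 (-1.58), the teneurin TENM2 (-1.07), HK2 (-1.01), PDK1 (-1.01), AK4 (-0.88), the hyaluronan synthase HAS2 (-0.87), the transcription factor KLF2 (-0.80) and the receptor phosphatase PTPRF (-0.77). Cell line and growth medium cannot be told apart in these differences. Of the 30 alternatives run, CYB561D1 passed under 12, ABHD11 under 13, TOMM34 under 11 and KLF2 under 10.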

How the results depend on the processing

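Counts of called genes are given as alternatives against 4 for SUM149PT, 0 for SUM159PT, 3 for the average, 0 for the difference between lines and 23 for the comparison with HS578T. In SUM149PT the mean of probe sets gave 2 and the fit on 12 arrays 1. In SUM159PT quantile normalization and median centring gave 1 each, an offset of 1 gave 9, the filter at the 60th percentile 2 and the fit on 18 arrays 1. For the average, the mean of probe sets gave 1, and median centring and the fits on 12 and 18 arrays 0 each. Alternatives chosen after seeing the data were leaving out the 3 bright arrays (0 in SUM149PT, 0 for the average, 5 against HS578T), quantile normalization with SUM149PT AZD3965 arrays 2 and 3 only (431 in SUM149PT, 656 for the average), and leaving out array 3 of the scrambled hairpin, whose actin ratio was 53.8 (5 in SUM159PT, 49 against HS578T). Leaving out 1 array at a time gave 2 to 648 in SUM149PT, 0 to 4 in SUM159PT, 0 to 977 for the average, 0 to 2 for the difference and 5 to 64 against HS578T. With the replicate number as a block the counts were 5, 0, 1, 0 and 8, but deviations of arrays with the same number correlated at -0.13 to 0.08 and the labels give no shared source for a number, so the numbers were not taken to pair the samples. In SUM149PT each of the 3 arrays correlated best with its own number (0.05 to 0.08), a hint from the data only, which did not hold for all numbers in SUM159PT or HS578T. Against HS578T the split of higher and lower calls was 6 and 28 under quantile normalization and 1 and 18 under median centring, which moved the median gene by 0.091 in SUM159PT and 0.140 in HS578T. No result reversed its direction past the threshold in the alternatives run. Genes near the added 16, and genes on the bright arrays, are the least precisely measured.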

Other observations

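Other gene groups are given by members with an unadjusted p below 0.05 for the average of SUM149PT and SUM159PT, which 10.5% of all genes passed upwards and 8.83% downwards. No member passed the adjusted test. Amino acid transporters had 0 of 12 higher and 2 lower, with a median of -0.01. The serine and one-carbon list had 3 of 9 higher, among them MTHFD1 (0.37), a folate enzyme, and PHGDH (0.27, and 0.06 without the bright arrays), the first enzyme of serine synthesis, and 1 lower. Its median was -0.07 as deposited and -0.15 after quantile normalization. Genes of mitochondrial biogenesis had 0 of 8 higher and 1 lower, the transcription factor GABPA (-0.48, and -0.11 without the bright arrays). Immediate early genes had 3 of 12 higher, histones 1 of 10, and matrix proteases 1 of 10, with none lower in these lists. Receptors and ligands of the ERBB family had 2 of 7 lower and none higher.

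By the same reading, epithelial markers had 1 of 8 higher, basal markers 1 of 4 higher, mesenchymal markers 1 of 7 higher and 1 lower, and luminal hormone receptor markers 0 of 3. Of the other cell types, 3 of 5 leukocyte markers, 1 of 4 endothelial and 1 of 4 adipocyte markers were bright enough to test, with none past an unadjusted p for the average. The 3 leukocyte markers had a median of 0.68 in SUM149PT and -0.56 in SUM159PT. Signal medians in SUM149PT and SUM159PT were 13.8 and 51.7 for CD3E, 62.3 and 60.9 for ITGAM, and 420.1 and 21.6 for CD14. Apart from CD14 in SUM149PT, these signals were dim.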
